A study of Mus musculus with 6 samples.

Results

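Immediate early genes are switched on within minutes of a stimulus from transcription factors that the cell already holds, with no new protein needed first. FOS, FOSB, JUN, JUNB and JUND are subunits of the dimeric factor AP-1, EGR1 is a zinc finger transcription factor, ATF3 is a stress-induced member of the ATF/CREB family, and NR4A1 is an orphan nuclear receptor. IER2 is a nuclear protein of the same early response, and IER3 is known as an NF-kB target that modulates cell survival. In fibroblasts the textbook inducer is serum, which acts through ERK and the serum response factor. Transcripts of this group are also known to rise while tissue is dissociated into single cells, and all 6 plates described here went through dissociation and sorting, so that undissociated tissue was not analysed here. The levels of 10 such genes, Fos, Fosb, Jun, Junb, Jund, Egr1, Atf3, Ier2, Ier3 and Nr4a1, were followed across the sorted cells of mouse colon tumors. The genes were chosen by name, and all 10 were listed on every plate, of 19069 genes listed on any plate.

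Colon tumors of 6 mice, for which the series title names the AOM/DSS model and the labels give no further treatment, were dissociated, depleted by flow cytometry of cells positive for EPCAM, CD45 or CD31, and sorted as single cells into 1 plate of 384 wells per mouse. Mice 1, 3 and 4 were Zeb1Fib-Ctrl (Col6a1Cre negative) and mice 2, 5 and 6 were Zeb1Fib-deleted (Col6a1Cre positive). Both genotypes carried the conditional Zeb1 alleles, the Cre is driven by a Col6a1 promoter and so acts in a part of the fibroblasts, and the animals were described as age-matched littermates of both sexes. Each well was counted as transcripts, that is molecular barcodes at the 3′ end of the RNA corrected for barcodes drawn more than once, so that a transcript gives 1 tag whatever its length.

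Wells with 100 to 6000 genes and under 10% mitochondrial transcripts were kept, between 109 and 298 per mouse and 1233 in all, with 667892 to 3141934 transcripts per mouse. The labels call the sorted cells CAFs, but marker genes divided the kept wells into 503 fibroblast-like, 444 neutrophil-like, 89 pericyte-like and 68 epithelial-like wells, with 116 wells in no class and 13 glia-like or lymphocyte-like wells that were not followed further. The fibroblast-like wells were unevenly spread, with 166, 154, 15, 48, 108 and 12 in mice 1 to 6, and neutrophil-like wells were the larger class in mice 3 and 6. The sort was set to remove CD45 positive cells, yet S100a9, 1 of the neutrophil marker genes used, stood at 44072 CPM in the neutrophil-like wells and 51.5 CPM in the other kept wells. A fibroblast-like well held a median of 12075 transcripts and a neutrophil-like well 1436. Zeb1 in the fibroblast-like wells stood at 112, 121 and 99.5 transcripts per 1000000 (CPM) of the class in the Zeb1Fib-Ctrl mice against 58.7, 72.8 and 55.6 in the Zeb1Fib-deleted mice, a log2 difference of -0.75 ± 0.23 (SE) with an unadjusted p of 0.00982 and an adjusted p of 1.0 in edgeR. The labels do not give the part of Zeb1 that is removed, so that a tag at the 3′ end is a limited check of the deletion. The library of mouse 6 was sequenced on another flow cell by its run name, so that flow cell and mouse cannot be told apart for it. The number of wells limits the precision of every level below, and intervals of shares cover counting error only.

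Each member is a protein-coding gene in the annotation of the mouse assembly GRCm38. Fos spans chr12:85473890-85477273 on the plus strand, Fosb chr7:19302696-19310051 on the minus strand and Jun chr4:95049034-95052222 on the minus strand. Junb and Jund lie apart on chromosome 8, at chr8:84974484-84978718 on the minus strand and chr8:70698949-70700616 on the plus strand, and Ier2 is at chr8:84661331-84662852 on the minus strand of the same chromosome. Atf3 spans chr1:191170296-191218039 on the minus strand, Ier3 chr17:35821684-35822923 on the plus strand and Nr4a1 chr15:101254269-101274795 on the plus strand. Junb overlaps Prdx2, which runs on the opposite strand, and whether the counting used the strand is not given in the sources used here. Prdx2 itself was at 130 to 169 CPM in the fibroblast-like wells and at 0 to 49.5 in the neutrophil-like wells of the 6 mice.

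Promoter windows were printed for Fos, Junb, Nr4a1 and Atf3, because the levels of these members parted company between the classes of cells: Fos and Atf3 were lower in neutrophil-like than in fibroblast-like wells while Junb and Nr4a1 were higher. The sequences are from RefSeq on GRCm38.p6, 300 bases each, read 5′ to 3′ on the strand of the gene and spanning the start of a RefSeq transcript, at chr12:85473640-85473939 for Fos, chr8:84978699-84978998 for Junb, chr15:101266596-101266895 for Nr4a1 and chr1:191183284-191183583 for Atf3. Those of Atf3 and Nr4a1 are at internal starts, within the longer gene spans given above. Capitals mark TGACG or its reverse complement CGTCA, the core of the cyclic AMP response element that CREB and ATF proteins are known to bind.
Fos: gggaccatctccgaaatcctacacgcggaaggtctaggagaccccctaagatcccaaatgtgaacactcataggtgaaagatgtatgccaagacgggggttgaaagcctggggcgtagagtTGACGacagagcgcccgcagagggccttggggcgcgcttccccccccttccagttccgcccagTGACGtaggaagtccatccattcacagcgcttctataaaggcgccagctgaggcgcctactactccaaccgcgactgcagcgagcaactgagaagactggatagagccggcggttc
Junb: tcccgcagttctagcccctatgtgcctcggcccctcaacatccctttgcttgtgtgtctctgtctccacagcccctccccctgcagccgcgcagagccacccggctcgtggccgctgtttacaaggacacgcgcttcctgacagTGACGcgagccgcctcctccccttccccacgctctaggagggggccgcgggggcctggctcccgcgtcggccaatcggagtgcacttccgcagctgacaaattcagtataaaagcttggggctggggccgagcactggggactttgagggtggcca
Nr4a1: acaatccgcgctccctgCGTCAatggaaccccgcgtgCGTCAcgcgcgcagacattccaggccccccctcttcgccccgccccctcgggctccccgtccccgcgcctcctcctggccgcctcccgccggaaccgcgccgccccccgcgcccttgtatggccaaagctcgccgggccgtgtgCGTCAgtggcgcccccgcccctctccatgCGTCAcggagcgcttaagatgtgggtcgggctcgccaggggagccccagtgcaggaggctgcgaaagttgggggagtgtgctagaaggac
Atf3: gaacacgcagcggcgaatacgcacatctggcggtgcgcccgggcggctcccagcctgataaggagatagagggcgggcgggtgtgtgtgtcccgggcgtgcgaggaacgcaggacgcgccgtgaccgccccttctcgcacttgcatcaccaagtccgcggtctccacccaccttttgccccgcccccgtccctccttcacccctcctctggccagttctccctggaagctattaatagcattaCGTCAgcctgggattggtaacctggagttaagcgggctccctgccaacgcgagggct
These letters, searched on both strands, were found in the windows of 5 of the 8 members that had one, against 20.8% of 32851 promoter windows of the same length. The 5 were Fos with 2 matches, at 129 and 66 bases upstream of the start, Nr4a1 with 4, and Fosb, Junb and Atf3 with 1 each. The windows of Jun, Jund and Ier3 held none, and Egr1 and Ier2 had no window. The Jund window lies wholly upstream of the gene span given above, so that it does not hold the letters next to that start.

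Some of the other motifs searched were absent from the same windows, and others were present. The full palindrome TGACGTCA, which contains TGACG, was in none of the 8 windows and in 1.79% of all windows, the AP-1 site TGANTCA in none and in 7.81%, and the CArG box of the serum response factor in none and in 1.63%. The EGR motif GCGNGGGCG was in the windows of Fosb and Nr4a1, in 5.55% of all windows, and overlapped the TGACG match in neither. GCGNGGGCG and the GC box GGGCGG can share letters. TATAAA was in those of Fos and Junb, against 13.6% of all, and GGGCGG in 6 of the 8, against 35.7%. A window of this size holds only the letters around 1 transcript start, and each match is a description.

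The fibroblast-like wells carried high levels of the whole group. The 10 genes together made up 14836 ± 4885 CPM (SD, n = 6 mice), with a lowest value of 8985 in mouse 4 and a highest of 23305 in mouse 5. Fos was the most abundant at 3469 ± 1054, followed by Fosb at 2375 ± 1261, Egr1 at 1988 ± 732 and Jun at 1616 ± 379. Junb stood at 1446 ± 485 and Jund at 1358 ± 396. The other 4 members were lower, at 757 ± 421 for Atf3, 691 ± 380 for Ier3, 613 ± 296 for Nr4a1 and 524 ± 174 for Ier2. Neighbours in this order lay within the larger of their SDs, except Jund and Atf3.

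The neutrophil-like wells held the same genes in another order. Here Junb led with 2157 ± 396 CPM (SD, n = 6 mice), before Jund with 1400 ± 428 and Nr4a1 with 1029 ± 295. Fos followed at 793 ± 202, then Ier3 at 710 ± 252, Fosb at 592 ± 240, Egr1 at 406 ± 80.7, Ier2 at 384.5 ± 112.3 and Jun at 368 ± 115. Atf3 was the lowest at 143.5 ± 93.7 and was found at 0 in the 19 neutrophil-like wells of mouse 4, where a count of 0 allows up to 95.4 CPM. Junb and Jund, and Jun and Atf3, were the neighbours that lay further apart than the larger of their SDs. The sum was 7983 ± 1753, and it was below that of the fibroblast-like wells of the same mouse in 6 of 6 mice, at 0.480 to 0.687 times that level.

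**Figure D1:**
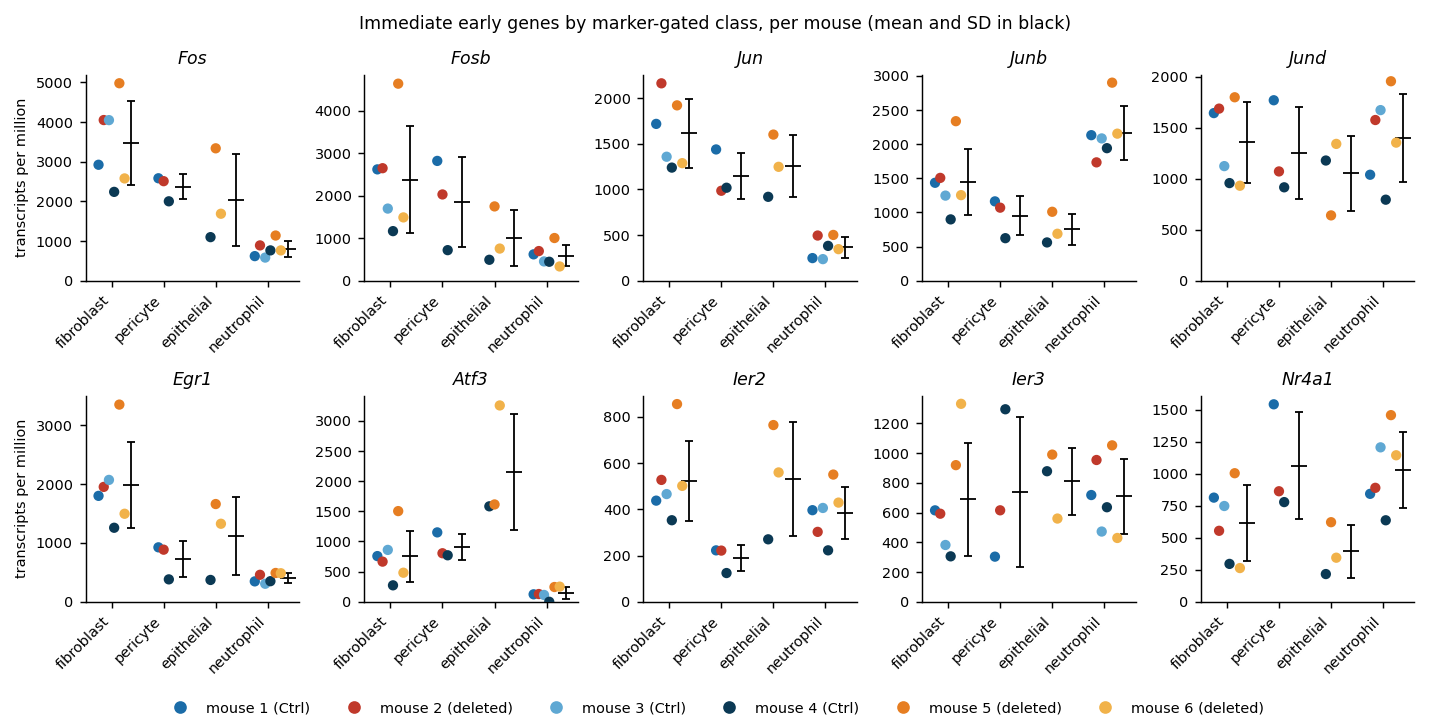
Level of each of the 10 genes in CPM (linear axis from 0) in fibroblast-, pericyte-, epithelial- and neutrophil-like wells, 1 point per mouse with at least 10 wells of the class, colored by mouse, with the mean and SD in black. Fos, Fosb, Jun, Egr1 and Atf3 have no neutrophil-like point above the lowest fibroblast-like point, while the neutrophil-like points of Junb, from 1733 to 2901, lie mostly above the fibroblast-like ones, from 898 to 2336.

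The test of the classes within mice, with edgeR's quasi-likelihood test on counts summed per class and mouse, called 5 members lower and 2 higher in neutrophil-like than in fibroblast-like wells. The classes are far apart, and of 3374 genes tested 43.0% were called lower and 32.8% higher, so that neither count of members stands out from the background. The median difference of all genes tested was -0.36 on the log2 scale with TMM factors, -0.88 with those of DESeq2 and -0.92 with library sizes alone. Member values are therefore read against that shift.

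Among the AP-1 genes, Fos, Fosb and Jun were lower in neutrophil-like wells, and Junb was higher. Fos had a lowest, median and highest value of 2239, 3485 and 4978 CPM in fibroblast-like wells against 582, 764 and 1138 in neutrophil-like wells. All 6 mice had less in the neutrophil-like wells and the ranges did not overlap, with a log2 difference of -1.74 ± 0.24 (SE) and an adjusted p of 2.54e-07. Fosb, at 1166, 2158 and 4635 against 334, 536 and 1004, differed by -1.58 ± 0.24 (adjusted p = 1.11e-06), and Jun, at 1240, 1539 and 2164 against 236, 364 and 502, by -1.76 ± 0.25 (adjusted p = 3.62e-07). Both were lower in 6 of 6 mice without overlap. Junb, at 898, 1343 and 2336 against 1733, 2108 and 2901, was higher in the neutrophil-like wells of 6 of 6 mice with overlapping ranges, by 1.0 ± 0.23 on the log2 scale (adjusted p = 0.000353). Jund, which is known to be expressed also in resting cells, was at 932 to 1800 in fibroblast-like and 795 to 1958 in neutrophil-like wells and was not called (0.44 ± 0.25, adjusted p = 0.111), with a sign that turned under 3 other scalings or filters.

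Egr1 and Atf3 went with Fos, and Nr4a1 with Junb. Egr1 had a lowest, median and highest value of 1258, 1876 and 3351 CPM in fibroblast-like wells against 306, 404 and 489 in neutrophil-like wells, a log2 difference of -1.87 ± 0.25 (adjusted p = 2.11e-07). Atf3, at 273, 712 and 1504 against 0, 126 and 251, differed by -1.96 ± 0.32 (adjusted p = 4.70e-06). Neither gene's ranges overlapped. Nr4a1 was at 263, 651 and 1003 in fibroblast-like and 636, 1016 and 1457 in neutrophil-like wells, higher in 6 of 6 mice with overlapping ranges, by 1.23 ± 0.27 (adjusted p = 0.000197). Ier2 (-0.04 ± 0.25, adjusted p = 0.876) and Ier3 (0.51 ± 0.28, adjusted p = 0.0966) were not called, and both changed sign under some settings. Ier2 was called lower with DESeq2 (adjusted p = 0.0423), library sizes alone (0.0303) and no filter on low counts (0.0184), and Ier3 was called higher with the mitochondrial outlier filter (0.00872), without mice 3 and 6 (0.00344) and without mouse 6 (0.0101). The higher calls of Junb and Nr4a1 were lost when no filter on low counts was used (adjusted p = 0.496 and 0.166), with differences of 0.24 and 0.47 of the same sign. The 5 lower calls were kept with every setting tried, and without mice 3 and 6 all 7 calls were kept.

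Free RNA and mixed wells can carry transcripts from one class into another, and the neutrophil-like wells were shallow, so the level of fibroblast genes in them was measured the same way. The 8 fibroblast markers of the gate, summed, stood in neutrophil-like wells at 1.63% to 8.32% of their fibroblast-like level (median 5.23%), and a set of collagen genes at 3.28% to 14.7%. Fos stood at 14.4% to 34.1% (median 22.4%), Egr1 at 14.6% to 32.4% and Jun at 14.4% to 30.8% of the fibroblast-like level. The 8 neutrophil markers stood in fibroblast-like wells at 0.0542% to 0.362% of their neutrophil-like level. The gate used both sets of 8 markers, and the part of such RNA in the member levels was not tested.

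Shares of wells at equal depth showed the same split, here first over all wells and then by mouse. When each well was thinned to 500 barcodes, Fos was found in 64.6% of 494 fibroblast-like wells (Wilson 95% interval 60.3% to 68.7%) and in 27.2% of 416 neutrophil-like wells (23.1% to 31.6%). Junb was found in 47.4% (43.0% to 51.8%) against 63.2% (58.5% to 67.7%), Nr4a1 in 25.5% (21.9% to 29.5%) against 40.6% (36.0% to 45.4%), and Atf3 in 30.4% (26.5% to 34.6%) against 7.93% (5.70% to 10.9%). Jund was found in 52.6% and 51.4% and Ier2 in 21.5% and 16.3%. These intervals treat wells as independent, and mice give unequal numbers of wells, with 188 of the 444 neutrophil-like wells from mouse 3. Within mice the share was lower in neutrophil-like wells for Fos, Fosb, Jun and Egr1 in 6 of 6, for Atf3 in 5, for Ier2 in 4 and for Jund in 3, and higher for Junb and Nr4a1 in 6 of 6. The share for Fos was 45.8% to 82.2% in fibroblast-like and 22.3% to 32.3% in neutrophil-like wells, and that for Junb 25.0% to 66.4% against 38.9% to 72.6%. Before thinning Fos was found in 92.6% and 52.9% of the wells. The thinning left out 9 fibroblast-like and 28 neutrophil-like wells that were shallower.

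Genes of the wider early response split between the classes as well. Of 28 other early response genes on a fixed list, 24 were tested, 14 were higher and 6 lower in neutrophil-like wells. Cebpb, a transcription factor of the myeloid lineage, differed by 3.65 ± 0.25 and Nfkbia, the inhibitor of NF-kB, by 3.21 ± 0.27, while Klf4, a Krüppel-like factor, differed by -4.04 ± 0.31 and Cyr61, a matricellular growth factor response gene, by -4.02 ± 0.36. Of 10 heat shock genes tested 9 were lower, led by Hspa1b at -3.11 ± 0.31, and 1 was higher. Of 8 ERK and serum response factor pathway genes tested, Dusp6, a phosphatase of ERK, and Mapk3 were higher and Spry2 was lower.

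The pericyte-like wells, compared in the 3 mice with at least 10 of them, had less Egr1 and Ier2 and more Nr4a1 than the fibroblast-like wells. Among 7684 genes tested 10.6% were called lower and 9.33% higher, and of the 10 members 2 were called lower and 1 higher. Egr1 was at 925, 885 and 381 CPM in the pericyte-like wells of mice 1, 2 and 4 against 1800, 1952 and 1258 in their fibroblast-like wells, a log2 difference of -1.38 ± 0.25 (adjusted p = 8.29e-05). Ier2 was at 222, 222 and 124 against 438, 527 and 353 (-1.35 ± 0.25, adjusted p = 0.000119). In both genes all 3 mice were lower in pericyte-like wells and the values did not overlap. Nr4a1 was at 1541, 862 and 778 against 813, 554 and 296 (0.85 ± 0.24, adjusted p = 0.0103), higher in 3 of 3 mice with overlap.

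The other 7 members were not called between pericyte- and fibroblast-like wells, with log2 differences from -0.68 for Jun to 0.64 for Atf3. Jun (-0.68 ± 0.25, adjusted p = 0.0544) and Atf3 (0.64 ± 0.26, adjusted p = 0.0828) were the nearest to the threshold. Jun was called with no filter on low counts (0.0397) and without mouse 1 (0.00619), and Atf3 with library sizes alone (0.0348), the mitochondrial outlier filter (0.00305) and without mouse 1 (0.0158). Ier3 was called higher without mouse 1 (adjusted p = 0.00183 in edgeR). That fit rests on mice 2 and 4, and 1 pericyte-like well held most of the Ier3 transcripts of mouse 4. Without mouse 4 the Ier3 difference was -0.59. With the filter on mitochondrial outliers in place of the fixed limit, a 4th mouse qualified and the Egr1 and Ier2 differences shrank to -0.45 (adjusted p = 0.332) and -0.50 (adjusted p = 0.262). The Nr4a1 call was lost without mouse 2 and without mouse 4. The 5 pericyte-like wells of mouse 5, too few for the comparison, had an Egr1 level of 3771 CPM. Of 25 other early response genes tested 3 were higher in pericyte-like wells and 6 lower, among them Gadd45b at 1.02 ± 0.24, Klf4 at -1.81 ± 0.25, Cyr61 at -1.31 ± 0.25 and Ier5 at -1.36 ± 0.35. Of 11 heat shock genes Hspb1 was higher and Hsp90aa1 lower, and of 10 pathway genes of ERK and the serum response factor Spry4 was higher.

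The epithelial-like wells, compared in mice 4, 5 and 6, held more Atf3 than the fibroblast-like wells in 3 of 3 mice, a difference whose call depended on the processing. Atf3 was at 1583, 1614 and 3256 CPM in epithelial-like wells against 273, 1504 and 482 in fibroblast-like wells of the same mice, higher in 3 of 3 without overlap. The fitted log2 difference was 1.64 ± 0.62, with an adjusted p of 0.149 in edgeR. It was called with DESeq2 (adjusted p = 0.0429) and, in edgeR, with no filter on low counts (0.0113) and a gate lead of 3 (2.72e-12). The gate lead of 3 left only 2 mice in this comparison. In mouse 5 the ratio of the classes was 1.07, and without it the difference was 2.36 (adjusted p = 0.000653). Fosb, at 491, 1747 and 755 against 1166, 4635 and 1489, was the only member called in the planned test, at -1.40 ± 0.33 (adjusted p = 0.0383). That call was lost with library sizes alone, without mouse 4 and without mouse 6. Egr1 (-1.17 ± 0.42, adjusted p = 0.138), Junb (-1.11 ± 0.34, adjusted p = 0.0891) and Fos (-0.93 ± 0.33, adjusted p = 0.131) were not called. With a gate lead of 3, over 2 mice, edgeR called these genes lower (adjusted p = 1.44e-08, 0.0116 and 0.000173). Egr1 and Junb were also called with no filter on low counts (0.0245 and 0.0339), and Junb and Fos without mouse 5 (0.0190 and 0.0108). Of 5043 genes tested 3.25% were called higher and 9.88% lower. Among 25 other early response genes 4 were lower and none higher, namely Cebpd at -2.81 ± 0.42, Socs3 at -2.31 ± 0.38, Nr4a2 at -2.57 ± 0.52 and Cyr61 at -1.59 ± 0.35.

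Within the fibroblast-like wells the telocyte-like wells had the lowest mean levels of the group, with Ier3 as an exception given below. Subtype markers divided the 503 wells into 149 iCAF-like wells, 109 telocyte-like wells, 96 wells of a subtype named for Cxcl13 and Grem1, and 149 other wells. The markers of the subtype named for Cxcl13 and Grem1 also included Edil3, Tnfsf13b, Hapln1 and Sfrp2, so that a well in it need not hold Cxcl13 or Grem1. The iCAF-like wells, a name used for fibroblasts with inflammatory genes, were found by Pi16, Dpp4, Ptx3 and 5 more genes, and the telocyte-like wells, named for fibroblasts beneath the epithelium, by Nrg1, Wnt5a, Bmp7 and 5 more, none of them a member. Over mice with at least 3 wells of a subtype, the 10 genes summed to 20750 ± 7641 CPM in iCAF-like wells (SD, n = 5 mice), 16307 ± 3651 in Cxcl13 and Grem1 wells (n = 6), 15587 ± 5979 in the other wells (n = 5) and 7789 ± 2305 in telocyte-like wells (n = 6). The first 3 of these means differed by less than their spread, and in each of the 5 mice with both subtypes the telocyte-like sum was below the iCAF-like one. Ier3 was at 745 ± 976 CPM in telocyte-like and 747 ± 280 in iCAF-like wells. It was at 472 ± 230 in Cxcl13 and Grem1 wells and 533 ± 215 in the other wells. The highest telocyte-like Ier3 level, 2699 CPM, was that of mouse 6, which had no iCAF-like well.

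**Figure D2:**
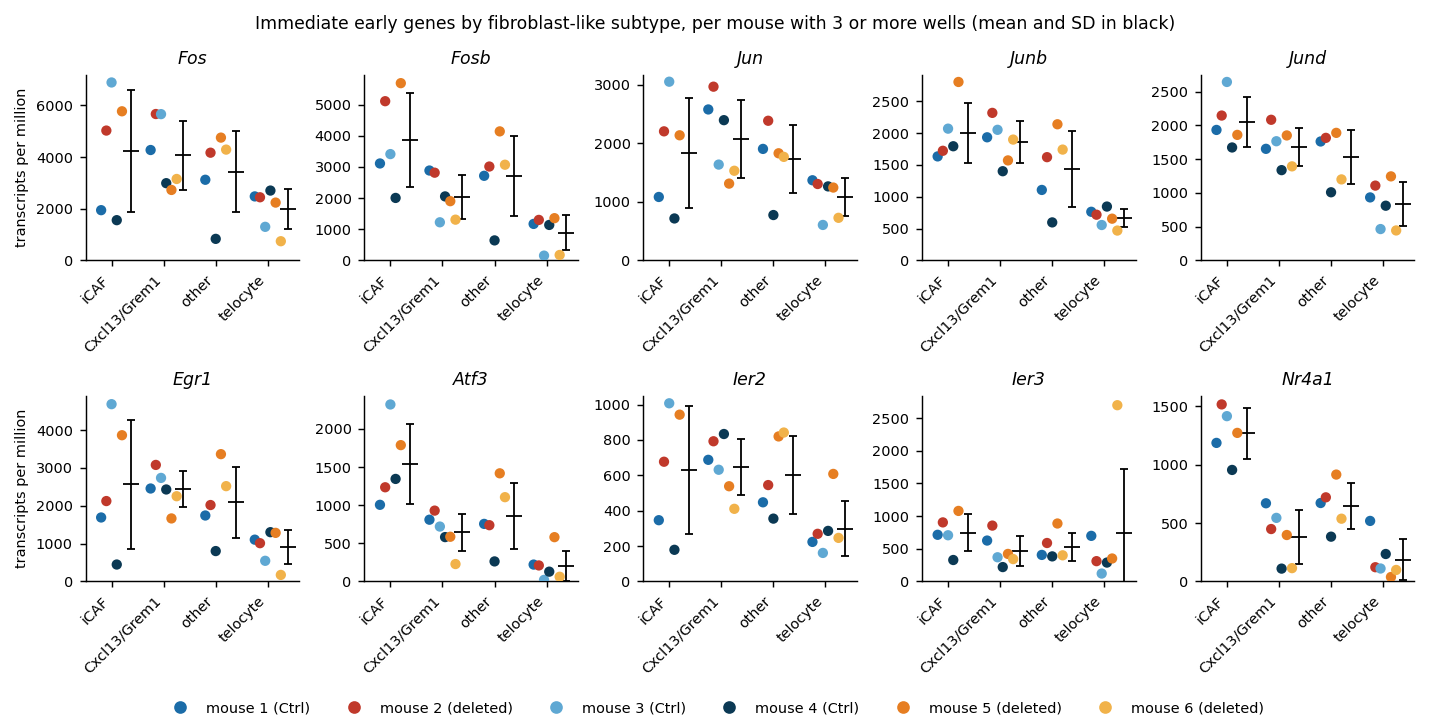
Level of each of the 10 genes in CPM (linear axis from 0) in 4 fibroblast-like subtypes, 1 point per mouse with at least 3 wells of the subtype, colored by mouse, with the mean and SD in black and error bars cut at 0. Fosb, Junb, Jund, Atf3 and Nr4a1 have no telocyte-like point above the lowest iCAF-like one, for example with iCAF-like points from 1005 to 2321 and telocyte-like points from 20.1 to 581 for Atf3.

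The test of telocyte-like against iCAF-like wells rested on mice 1 and 2, the only ones with at least 10 wells of each, and called 8 of 10 members lower. Mouse 1 was Zeb1Fib-Ctrl and mouse 2 Zeb1Fib-deleted. With 2 mice, the SEs and p-values draw mostly on variance estimates shared across genes and say little about spread between mice. Among 6969 genes tested 8.45% were called lower and 7.71% higher. Atf3 was at 221 and 210 CPM in the telocyte-like wells of mice 1 and 2 against 1005 and 1235 in their iCAF-like wells, a log2 difference of -2.52 ± 0.30 (adjusted p = 1.03e-07). Nr4a1 was at 518 and 122 against 1187 and 1517 (-2.52 ± 0.38, adjusted p = 5.45e-06). Fosb was at 1170 and 1299 against 3112 and 5112 (-1.84 ± 0.27, adjusted p = 3.95e-06). These were the members with the largest differences, and none of their values overlapped.

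The other calls between these subtypes were smaller. Junb, at 763 and 717 against 1634 and 1722 CPM, differed by -1.32 ± 0.28 (adjusted p = 0.000559) and Jund, at 933 and 1108 against 1934 and 2147, by -1.14 ± 0.27 (adjusted p = 0.0024). Ier2 differed by -1.13 ± 0.29 (adjusted p = 0.00517), Egr1 by -0.99 ± 0.27 (adjusted p = 0.00901) and Ier3 by -0.92 ± 0.31 (adjusted p = 0.0397). Fos and Jun, the founding AP-1 genes, were not called. Fos was at 2476 and 2442 in telocyte-like against 1943 and 5026 in iCAF-like wells, and Jun at 1370 and 1306 against 1084 and 2207. Both genes were higher in Zeb1Fib-Ctrl mouse 1 and lower in Zeb1Fib-deleted mouse 2, so that mouse and genotype cannot be told apart here. Their log2 differences were -0.49 ± 0.28 (adjusted p = 0.297) and -0.35 ± 0.28 (adjusted p = 0.497), and with the mitochondrial outlier filter Fos was called lower (-0.75, adjusted p = 0.0129).

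When at least 3 wells of each subtype were asked for, 5 mice entered and 7 of the 8 calls held. Egr1 was then at -1.14 with an adjusted p of 0.0833. Over those 5 mice the telocyte-like level was below the iCAF-like level in 5 of 5 for Fosb, Junb, Jund, Atf3, Ier3 and Nr4a1, in 4 for Egr1 and Ier2 and in 3 for Fos and Jun. Mouse 6, with the highest telocyte-like Ier3 level, had no iCAF-like well and was not among them. In mice 1 and 2 DESeq2 did not call Ier2, Ier3 and Nr4a1 (adjusted p = 0.0898, 0.236 and 0.108), and with library sizes alone edgeR did not call Ier3 (adjusted p = 0.0533). Telocyte-like wells were also deeper, with a median of 15609 transcripts against 9225, and had a higher mitochondrial share, 7.59% against 6.14%. The part of depth and mitochondrial share in these differences was not tested.

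The wider early response was lower in telocyte-like wells too. Of 25 other early response genes tested, 18 were lower and none higher, with a median difference of -1.35 on the log2 scale against 0.04 over all genes tested. Klf4 differed by -3.27 ± 0.30, Myc, the growth factor response gene, by -3.70 ± 0.48, Csrnp1 by -2.49 ± 0.31 and Ier5 by -2.19 ± 0.30. Heat shock genes were mixed, with 2 of 11 higher and 2 lower. Of 10 ERK and serum response factor pathway genes tested only Spry4, an inhibitor of receptor tyrosine kinase signaling, was called, and it was higher (3.07 ± 0.50).

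Across single fibroblast-like wells the summed level varied widely within each mouse. The 90th percentile of wells was 4.71 to 44.6 times the 10th, and the median well held at least 8 of the 10 genes in every mouse. Single wells weighed on the rarer members. Of the 263 Ier3 transcripts in the 12 fibroblast-like wells of mouse 6, 212 came from 1 telocyte-like well, and without it the Ier3 level of that mouse was 316 in place of 1332 CPM. In the pericyte-like wells of mouse 4, 1 well held 90.4% of the Ier3 transcripts.

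The members moved together from well to well in fibroblast-like cells. With wells thinned to 1000 barcodes to make their depth equal, the 45 pairs of members had median Spearman correlations of 0.21, 0.31, 0.30 and 0.18 in mice 1, 2, 4 and 5, and 44, 44, 42 and 36 of the 45 were above 0. The closest pairs, as medians over the 4 mice, were Fos with Jun (0.55, from 0.46 to 0.61), Fos with Egr1 (0.54, from 0.45 to 0.76) and Jun with Egr1 (0.50, from 0.31 to 0.56). Jund and Ier3 moved least with the rest, with medians of 0.15 and 0.14 over their 9 pairs. In neutrophil-like wells of mice 2, 3, 5 and 6 the medians over pairs were -0.004, 0.08, 0.06 and 0.01, from wells in which the members are rarer. Wells of 1 plate share a library, and these correlations are descriptions of sparse counts. The fibroblast-like wells of a mouse also mix subtypes that differ in these genes, and the part of subtype in the correlations was not tested.

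**Figure D3:**
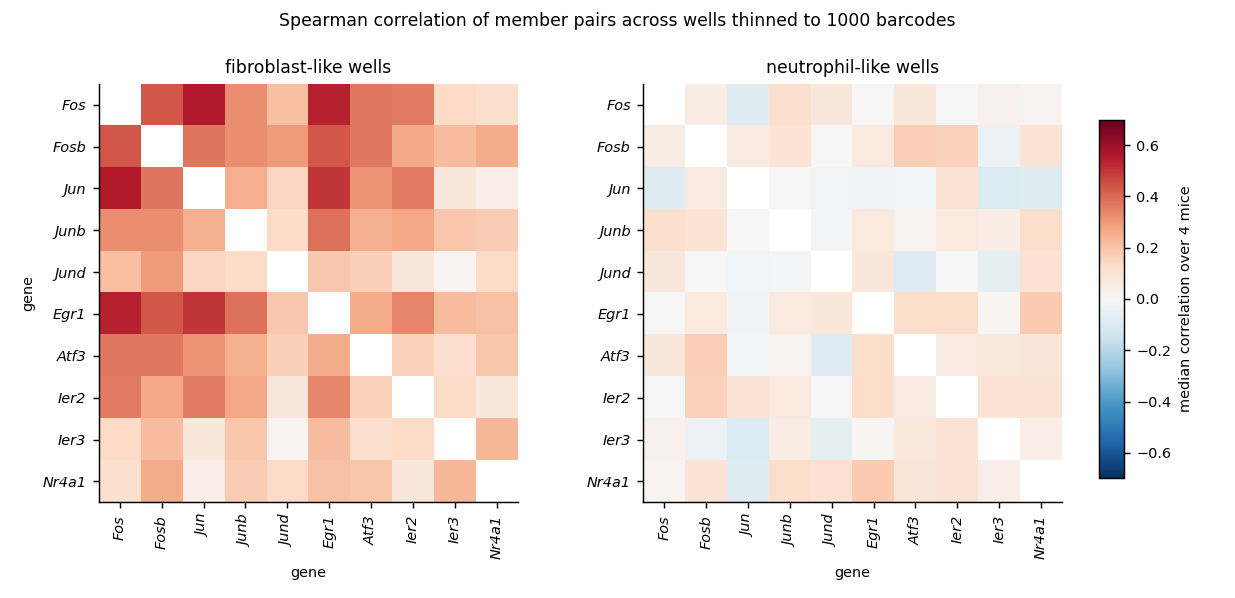
Spearman correlation of each pair of the 10 genes across wells thinned to 1000 barcodes, as the median over 4 mice, for fibroblast-like wells (left) and neutrophil-like wells (right), with the color scale from -0.7 in blue to 0.7 in red. Fos, Jun and Egr1 form the darkest block on the left, at 0.50 to 0.55, and the right panel is pale throughout.

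Genes outside the group that followed its sum most closely were other early response genes for the most part. Among 605 genes found in at least 20% of 463 thinned fibroblast-like wells, the 10 with the highest median Spearman correlation with the summed level over mice 1, 2, 4 and 5 included Zfp36 (0.57), Klf4 (0.39), Btg2 (0.36), Mgp (0.35), Nfkbiz (0.35), Mt1 (0.35), Dusp1 (0.34), Socs3 (0.31) and Nfkbia (0.30). Zfp36 encodes an RNA-binding protein that destabilizes messenger RNAs with AU-rich elements, and Dusp1 a phosphatase of MAP kinases. In mouse 5 Mgp had a value of -0.05, whereas Zfp36 was at 0.46 to 0.71 in all 4 mice. The list of other early response genes held 6 of these 10, and its 17 ranked genes had a median of 0.25 against 0.00 for all 605. These correlations pool the subtypes of a mouse as well.

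Wells with a higher mitochondrial share, often read as a sign of cell damage, had lower summed member levels in 4 of 4 mice, without a gene passing the test. In mice 1, 2, 4 and 5 the fibroblast-like wells were split at the median share of each mouse, into low-share and high-share wells, and genes of the mitochondrial chromosome were left out. The summed level, as CPM over non-mitochondrial transcripts, was 16338, 19623, 10940 and 25927 in the low-share wells of these mice and 14995, 15303, 8132 and 23477 in their high-share wells, lower in 4 of 4. No gene was called in edgeR (0.0% of 7902 tested, 541 with an unadjusted p under 0.05, and 14 called by DESeq2). All 10 members had fitted differences below 0, where 49.8% of all genes had, with a median of -0.29, and 6 of 10 had an unadjusted p under 0.05 in that direction, against 3.96% of all genes. These 10 differences are not independent, since the members moved together across wells. By mouse, Fos, Fosb, Jun, Junb and Atf3 were lower in 3 of 4, and the other members in 4 of 4. Fos rose in mouse 1, from 2706 to 3678 CPM over non-mitochondrial transcripts.

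Nr4a1 and Ier3 had the largest differences between low-share and high-share wells. Their levels in this paragraph are CPM over non-mitochondrial transcripts. Nr4a1 was at 1034, 820, 323 and 1115 CPM in the low-share wells of mice 1, 2, 4 and 5 and at 645, 356, 312 and 1012 in the high-share wells (-0.60 ± 0.19 on the log2 scale, adjusted p = 0.456). Ier3 was at 744, 743, 420 and 1072 against 539, 521, 219 and 865 (-0.59 ± 0.13, adjusted p = 0.237). Both were lower in the high-share wells of 4 of 4 mice. All 25 other early response genes tested were below 0 as well, with a median of -0.27. The split also parted subtypes, since iCAF-like wells made up 45.8% of the low-share and 18.1% of the high-share wells in mouse 1, 16.9% and 5.19% in mouse 2, and 64.8% and 70.4% in mouse 5. Within single subtypes the Spearman correlation of the summed level with the mitochondrial share ranged from -0.38 in telocyte-like wells of mouse 2 to 0.15 in telocyte-like wells of mouse 1, and the part of subtype in the difference was not tested.

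Wells beyond the limit of 10% differed between mice. Fibroblast-like wells with 10% to 30% mitochondrial transcripts had a summed level of 14826, 13277, 12492, 11979, 18719 and 5715 CPM over non-mitochondrial transcripts in mice 1 to 6, against 15765, 17513, 15112, 9658, 24835 and 12531 in the wells under 10%. The level was lower in 5 of 6 mice and higher in mouse 4. Against the wells under 10%, edgeR called 34 of 4412 genes tested, all of them lower. Atf3 was among them at -0.72 (adjusted p = 0.0302). The differences of the other 9 members ranged from -0.01 for Jun to -0.64 for Ier3 and were not called.

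**Figure D4:**
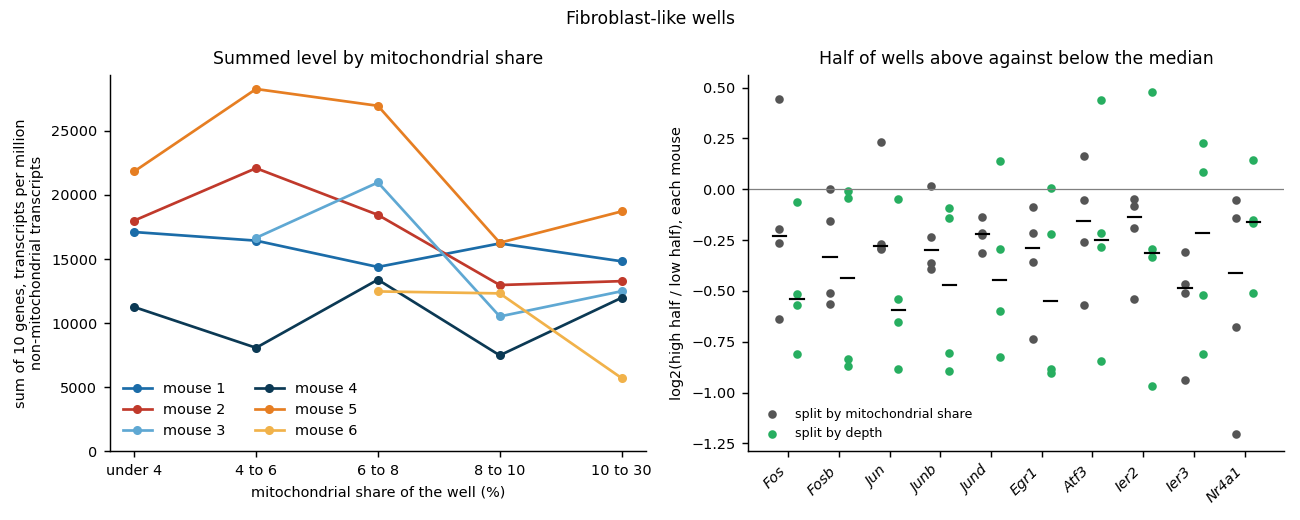
Left, the summed level of the 10 genes as CPM over non-mitochondrial transcripts (linear axis from 0) in fibroblast-like wells by mitochondrial share, 1 line per mouse and 1 point per bin with at least 3 wells. Right, log2 of the level in the wells above the median over that in the wells below it, 1 point per mouse (mice 1, 2, 4 and 5), split by mitochondrial share in gray or by depth in green, with the median as a bar; the bars are below 0 for all 10 genes in both splits.

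The split by depth gave the same sign. When the same wells were split at the median number of transcripts of each mouse, the summed level was lower in the deeper wells of 4 of 4 mice, at 0.563 to 0.931 times the level of the shallower wells. No gene was called in edgeR (0.0% of 7593 tested, 530 with an unadjusted p under 0.05, and 5 called by DESeq2). All 10 members were below 0, where 50.5% of all genes were, and 5 of 10 had an unadjusted p under 0.05 in that direction, against 3.79% of all genes. These were Jun (-0.51 ± 0.17), Egr1 (-0.49 ± 0.19), Junb (-0.47 ± 0.18), Fos (-0.47 ± 0.15) and Fosb (-0.43 ± 0.19), with adjusted p-values of 0.573 to 0.702. Nr4a1 was the least changed at -0.14 ± 0.16. The 10 differences by depth are not independent either, since the members moved together across wells. Telocyte-like wells made up 35.1% of the deeper and 15.6% of the shallower wells in mouse 2 and 50.0% and 79.2% in mouse 4, and their part in the difference was not tested.

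The genotypes were then compared over 3 mice each. Over all kept wells the 10 genes summed to 11577 ± 2869 CPM in Zeb1Fib-Ctrl and 15059 ± 4499 in Zeb1Fib-deleted mice (SD, n = 3), with overlapping values. No gene was called in edgeR (0.0% of 10424 tested, 73 with an unadjusted p under 0.05, and 1 called by DESeq2). Of the members 8 had fitted differences above 0, against 43.8% of all genes, and only Ier2 had levels that did not overlap between the genotypes, as 3.86% of all genes did. The classes of cells were unevenly spread over the plates, so that these levels mix fibroblast-like and neutrophil-like wells in different shares.

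Within fibroblast-like wells the members leaned toward higher levels in Zeb1Fib-deleted mice without passing the test. The sum was 14763, 14001 and 8985 CPM in Zeb1Fib-Ctrl mice 1, 3 and 4 and 16347, 23305 and 11615 in Zeb1Fib-deleted mice 2, 5 and 6. All 10 fitted differences were above 0, where 50.6% of all genes were, with a median of 0.50. No gene was called in edgeR (0.0% of 8315 tested, 128 with an unadjusted p under 0.05, and 3 called by DESeq2). Mice 3 and 6 gave 15 and 12 fibroblast-like wells to these values. In the same order of mice, iCAF-like wells numbered 53, 3 and 3 against 17, 73 and 0. Telocyte-like wells numbered 23, 6 and 31 against 39, 6 and 4. The subtypes differed in these genes, and their part in the genotype differences was not tested. The 10 fitted differences are not independent, since the members moved together across wells.

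**Figure D5:**
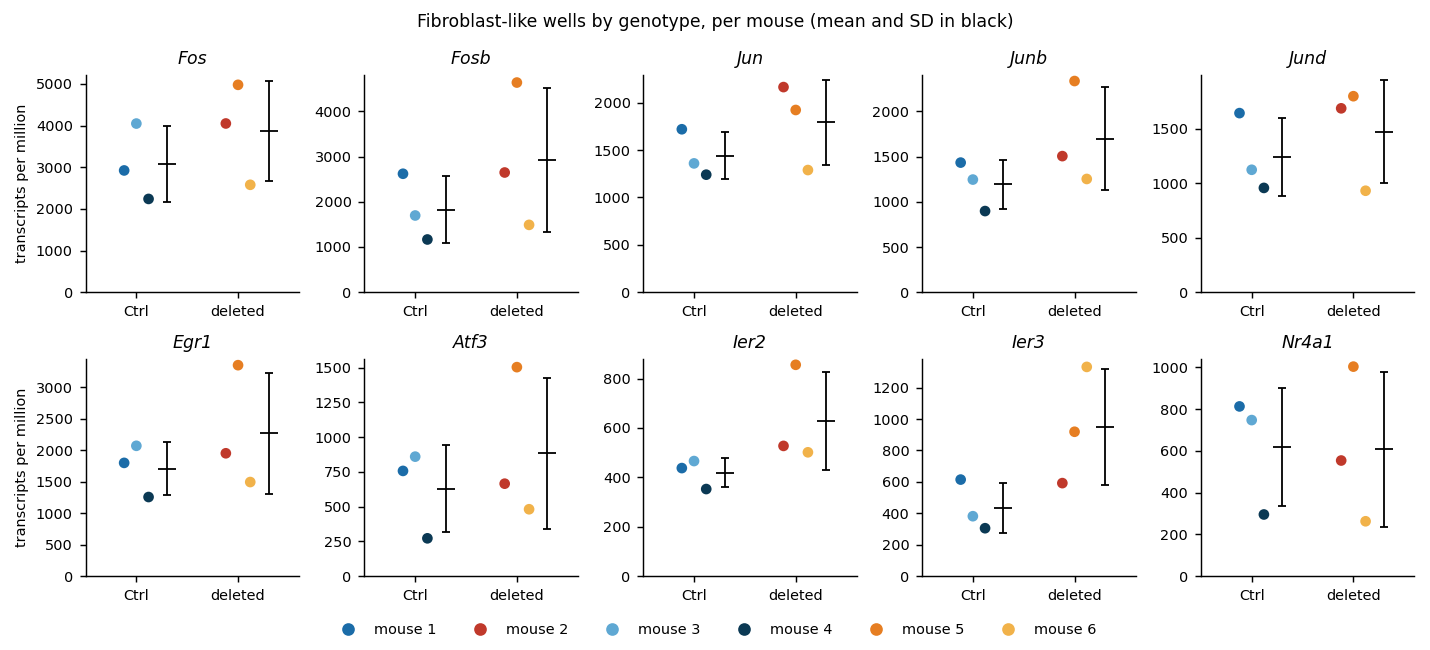
Level of each of the 10 genes in CPM (linear axis from 0) in fibroblast-like wells of 3 Zeb1Fib-Ctrl and 3 Zeb1Fib-deleted mice, 1 point per mouse, with the mean and SD in black. Mouse 5 is the highest point in 8 of the 10 panels, and only Ier2 has no overlap, from 353 to 466.1 against 502 to 856.

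Ier2 was the only member whose levels did not overlap, against 6.58% of all genes. It was at 438, 466.1 and 353 CPM in the Zeb1Fib-Ctrl mice and at 527, 856 and 502 in the Zeb1Fib-deleted mice, a log2 difference of 0.64 ± 0.29 (unadjusted p = 0.0531, adjusted p = 1.0). Without mouse 5 the difference was 0.30. Ier3 had the largest difference, 1.13 ± 0.37 (unadjusted p = 0.0142, adjusted p = 1.0), from 615, 382 and 306 in Zeb1Fib-Ctrl and 592, 919 and 1332 in Zeb1Fib-deleted mice. The highest of these, in mouse 6, is the value that 1 well set, and without that well the Ier3 level of mouse 6 was 316, within the range of the Zeb1Fib-Ctrl mice.

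Mouse 5 weighed on several other members. Fosb, at 2619, 1696 and 1166 in Zeb1Fib-Ctrl and 2646, 4635 and 1489 in Zeb1Fib-deleted mice, differed by 0.72 ± 0.46, and by 0.17 without mouse 5. The differences of Atf3 and Nr4a1 turned below 0 without it. Nr4a1, at 813, 747 and 296 against 554, 1003 and 263, was the nearest to 0 at 0.03 ± 0.53, and its sign also turned with library sizes alone. Fos (0.38 ± 0.33), Jun (0.36 ± 0.27), Junb (0.56 ± 0.32), Jund (0.28 ± 0.33), Egr1 (0.46 ± 0.35) and Atf3 (0.54 ± 0.53) had overlapping levels. Of 25 other early response genes tested 22 were above 0 and none was called, with a median of 0.33, while 8 of 11 heat shock genes were below 0.

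Whether the difference between neutrophil-like and fibroblast-like wells depended on genotype was tested with an interaction term in edgeR. None of the 10 members was called, each with an adjusted p of 1.0, and 1 of 4691 genes tested was. The largest interaction among the members was that of Atf3, at 1.06 on the log2 scale (unadjusted p = 0.124).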

How the data were processed

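Single cells were profiled by SORT-seq, a plate-based 3′ method on CEL-Seq2 chemistry with a molecular barcode on each transcript. Per the labels and the methods, the authors aligned reads to the GRCm38 transcriptome with BWA, and the labels also list Cell Ranger 2.1.1. As deposited, the barcode counts give how many different molecular barcodes each gene had in a well. The second deposited table holds transcript numbers, which are expected counts, since the authors' provider corrected for barcodes drawn repeatedly from a space of 4096. These were used here, rounded to whole numbers after summing for the tests. Whether counting used the strand is not given in the sources used here. The plates use 1 set of 384 well barcodes, so that shared barcodes carry no information.

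Spike-ins were left out of all totals, and took 7.85% to 18.6% of the counts per plate. Wells with 100 to 6000 genes and under 10% mitochondrial transcripts were kept. A well joined a class when at least 3 of its markers were found with a lead of 2 over every other class, and fibroblast-like wells joined a subtype with at least 2 markers and a lead of 2. Doublets were not called. The class markers were 8 per class, and wells short of 3 markers or of the lead stayed without a class. A well in a class could still hold markers of other classes. The median number of fibroblast markers found was 2 in pericyte-like and 1.5 in epithelial-like wells. Levels are transcripts of a gene over all transcripts of the class and mouse, scaled to 1000000 (CPM), except where non-mitochondrial transcripts are named. Counts summed per class and mouse were tested with edgeR 4.0.16 (quasi-likelihood, TMM factors, filterByExpr, Benjamini-Hochberg adjustment at 0.05 over all genes tested) in R 4.3.3. Mouse was a block between classes, subtypes or splits of wells. Mice entered with at least 10 wells of each class, or, for a split at the median, with at least 20 fibroblast-like wells in all. The mouse is the replicate, 3 per genotype. The script was tested on simulated data. Shares have Wilson 95% intervals, and a count of 0 was taken to allow 3 counts.

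The members were given by name, the lists and tests were chosen with earlier results of these data known, and non-member genes were named as the 4 with the smallest p of a list, or the 10 most alike by median Spearman correlation, of which 1 is not reported here. Alternatives were the barcode counts, DESeq2 1.42.0, library sizes alone, no filter on low counts, a filter on mitochondrial outliers at 3 median absolute deviations, leaving out wells with Ptprc or Epcam, a gate lead of 3, and leaving out each mouse. After the data were seen, a fit without mice 3 and 6 and a minimum of 3 wells per subtype were added.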

Additional observations from a re-analysis of the deposited data

Results flagged for a closer look

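Of 50 sets of values per mouse tested for a value far from the others, 3 held one, where chance alone flags about 1 in 20. Ier2 in fibroblast-like wells was 856 CPM in mouse 5, a Zeb1Fib-deleted mouse, and at most 527 in the other 5 mice. Junb in neutrophil-like wells was 2901 CPM in mouse 5 and at most 2154 in the others. The ratio of Jun between high-share and low-share wells by mitochondrial transcripts was 1.17 in mouse 1 and at most 0.829 in mice 2, 4 and 5.

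Of 30 contrasts compared between genotypes, 1 had opposite directions in every mouse of the 2 genotypes. Ier3 was higher in the deeper than in the shallower fibroblast-like wells of Zeb1Fib-Ctrl mice 1 and 4, by 55.8 CPM on average, and lower in those of Zeb1Fib-deleted mice 2 and 5, with a mean difference of -357. This difference between genotypes was not tested.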

How the results depend on the processing

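The 5 lower calls in neutrophil-like wells and the telocyte-like calls of Atf3, Fosb, Junb and Jund kept their direction and side of the threshold under every alternative run, and calls that other members lost or gained in the class and subtype comparisons stand beside them above. With the mitochondrial outlier filter Atf3 and Nr4a1 were called lower by mitochondrial share (adjusted p = 0.00725 and 0.00391) and Jun, Junb and Jund by depth (adjusted p = 0.0402, 0.00805 and 0.0183) in edgeR, and with no filter Ier3 and Nr4a1 were called by mitochondrial share (adjusted p = 0.0110 and 0.00667). Counts of called genes moved with the tool and filter, and the cause was not tested. DESeq2 called 1 gene between genotypes over all wells, 3 in fibroblast-like wells, 1009 between pericyte- and fibroblast-like wells, 345 between telocyte- and iCAF-like wells, 14 by mitochondrial share and 5 by depth. With no filter on low counts 7351 genes were called between neutrophil- and fibroblast-like wells, 1912 for epithelial-like wells, 135 by mitochondrial share and 105 by depth. The mitochondrial outlier filter gave 1039 for epithelial-like wells, 99 by mitochondrial share and 13 by depth. A gate lead of 3 gave 1396 for epithelial-like wells, over 2 mice, and 3 by depth. Library sizes alone gave 3 by mitochondrial share, and wells of 10% to 30% gave 34. Leaving out 1 mouse gave 855 to 1581 calls for pericyte-like wells (855 without mouse 2), 369 to 1396 for epithelial-like wells (369 without mouse 4, 1396 without mouse 5), 0 to 17 by mitochondrial share (17 without mouse 5) and 0 to 1 by depth.

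Members that were not called changed sign under some settings, on the log2 scale. Between genotypes over all wells Junb was -0.033 with the outlier filter and -0.17 to 0.44 over left-out mice, Jund 0.051 with library sizes alone and -0.31 to 0.082, and Nr4a1 0.082 and -0.46 to 0.26. In fibroblast-like wells Nr4a1 was -0.008 with library sizes alone, -0.070 with a gate lead of 3 and -0.58 to 0.38 over left-out mice, and Atf3 -0.14 to 0.84. In neutrophil-like wells Jund was -0.037 with DESeq2, -0.094 with library sizes alone and -0.32 with no filter, Ier2 0.35 with the outlier filter and -0.12 to 0.033 over left-out mice, and Ier3 -0.0088 with library sizes alone and -0.24 with no filter. In pericyte-like wells the outlier filter gave Fos 0.12, Fosb 0.010 and Ier3 -0.18, and Ier3 was -0.59 to 0.95 over left-out mice. In epithelial-like wells Jund was 0.28 with a gate lead of 3 and -0.83 to 0.13 over left-out mice, and Ier3 0.21 with library sizes alone, 0.065 with a gate lead of 3 and -0.73 to 0.58.

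Telocyte- and iCAF-like wells could not be fitted with a gate lead of 3, which left under 2 mice, and with 1 mouse left out no residual degree of freedom remains. No paired analysis was possible because the replicate numbers of the genotypes name mice in accession order only, and wells of different classes were compared within mice throughout. The neutrophil-like wells were the shallowest, and the 15 and 12 fibroblast-like wells of mice 3 and 6 limit what the genotype comparison can resolve.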

Other observations

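The 82 wells with fewer than 100 genes, which were left out of every comparison, held 51 transcripts of the 10 genes among 8615 in all, or 5920 CPM. By mouse the level in these wells was 12269, 12224, 3275, 2109, 14706 and 6492 CPM in mice 1 to 6, from 4 to 18 transcripts each.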
